A study of Rattus norvegicus with 9 samples.

Results

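The comparison described here is that of cultured rat sympathetic neurons exposed to bone morphogenetic protein 7 (BMP-7) for 24 hr with neurons kept in the same medium without it, at the time when BMP-7-treated neurons begin to form dendrites. It took the 3 arrays titled for 24 hr of BMP-7 and the 3 titled as 24 hr controls, out of 9 arrays in the series, and every one of the 8740 rat probe sets on them. A probe set is a group of short probes that reads 1 transcript, and its value is a log2 expression level, so that a difference of 1 is a doubling. The neurons came from superior cervical ganglia (SCG) of Holtzman rat pups at embryonic day 21 and grew in serum-free medium with 100 ng/ml nerve growth factor, after a course of the antimitotic cytosine arabinoside to remove dividing non-neuronal cells. On day 5 in vitro, BMP-7 was added at 50 ng/ml for 24 hr, and control cultures received none. The remaining 3 arrays held neurons after 6 hr of BMP-7, and their values are set beside those at 24 hr where useful. Each group had 1 array per dissection, from 3 dissections. The first replicate of each group was processed as 1 batch with 10 µg of cRNA and the other 2 replicates as a second batch with 5 µg. The model is therefore of perinatal neurons without their targets, preganglionic input or most of their glia, and RNA was bulk, so that fewer cells of a type and less RNA per cell cannot be told apart.

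BMPs are secreted ligands of the transforming growth factor-beta family. They bind paired serine/threonine kinase receptors, which phosphorylate Smad proteins that enter the nucleus and switch target genes on or off. Sympathetic neurons grown with nerve growth factor alone extend only an axon, and BMPs add the dendrites.

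The labelled cell type was checked against marker genes. The 12 measured neuron markers averaged 11.45 in control arrays and 11.42 after BMP-7 (log2), against 7.26 and 7.26 over all 4736 genes measured, each taken at its brightest probe set. Probe sets differ in brightness for technical reasons, so that levels of different lists only place them roughly. Tyrosine hydroxylase (Th), the enzyme that defines catecholamine neurons, read 13.48, 13.50 and 13.50 in the control arrays and 13.40, 13.33 and 13.51 after BMP-7. Th overlapped between groups, with a difference of -0.08 ± 0.11 (log2, SE). None of the markers of neurons (12), of satellite glia and Schwann cells (13) or of macrophages and blood cells (12) met the unadjusted thresholds described next. Over all genes 1.77% were higher and 2.05% lower at those thresholds, so none is near the base for lists this small. Of 25 fibroblast and matrix markers, 5 (Igfbp3, Dcn, Mgp, Lum and Vim) were lower at those thresholds (20%, against 2.05% of all genes) and none higher. Their summed level, as the mean of the list, ran from 9.06 to 9.23 in control arrays and from 8.78 to 9.02 after BMP-7, without overlap. Replicate 3 differed most. Between arrays of the same replicate number the list's mean differed by -0.12, -0.05 and -0.45 in replicates 1 to 3, with 15, 12 and 23 of the 25 genes lower, and without both arrays of replicate 3 the difference of -0.20 became -0.08. Of 10 endothelial and mural markers, Kdr alone was lower at those thresholds (10%). What part the fibroblast and endothelial markers have in any result was not tested.

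**Figure D1:**
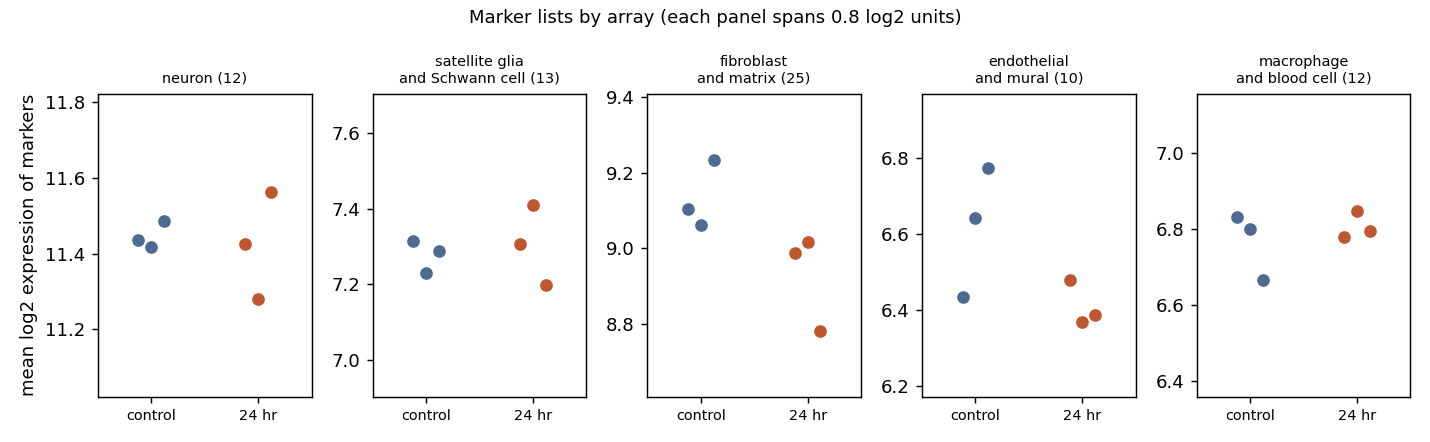
Mean log2 expression of 5 marker lists in each control and 24 hr array, with the number of measured genes in brackets. Points are arrays, and the vertical axes differ in position and share a span. Fibroblast and matrix markers lay lower in every BMP-7 array than in any control array, by a small margin outside replicate 3, and the neuron markers overlapped.

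Few probe sets passed the adjusted test at 24 hr, and most of those were large increases. Limma, fitted to all 9 arrays with treatment and batch, found 17 probe sets higher (0.195% of 8740) and 2 lower (0.0229%) after BMP-7 at a Benjamini-Hochberg adjusted p below 0.05. The 19 comprised 13 named genes and 4 probe sets with no gene name here. Of the 13 genes, 11 rose (Nog, Id1, Id2, Id3, Ngfr, Gfra2, Hpcal1, Hsd11b2, Jag1, Cxcr4 and Olfm1) and 2 fell (Egln3 and Csrp2). In all 19 probe sets the 3 BMP-7 arrays did not overlap the 3 control arrays. Over all probe sets, 490 lay entirely above control (5.61%) and 618 entirely below (7.07%), so that separation alone was common. At the thresholds named in the study's methods, an unadjusted p below 0.05 with a change of at least 1.2-fold, 140 probe sets were higher (1.6%) and 152 lower (1.74%), and counted as genes at their brightest probe set these were 84 (1.77%) and 97 (2.05%) of 4736. Gene counts used for the functional groups have the same base, on which 9 genes passed the adjusted test higher (0.19%) and 1 lower (0.0211%), and 282 (5.95%) lay entirely above control and 364 (7.69%) entirely below. The median change over all probe sets was 0.01 (log2) and the median size of change was 0.11. Changes of at least 1 log2 unit were seen in 30 probe sets higher and 21 lower, of which 28 and 20 had groups apart. With 3 arrays per group the smallest rise called was 0.84, so the adjusted count does not measure how broad the response was.

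The adjusted calls rested on all arrays. Without control replicate 1, or without any single BMP-7 24 hr array, no probe set passed, although 188 to 320 had an unadjusted p below 0.05. Without control replicate 2 there were 2 higher and 0 lower, and without control replicate 3 there were 7 and 0, with 293 and 217 probe sets at an unadjusted p below 0.05. Without BMP-7 6 hr replicate 1 the counts were 11 and 1, and without its replicate 2 they were 22 and 4. Control replicate 3 stood apart most, with 3.84% of its probe sets over 1 log2 unit away from the average of its group's other arrays, against 0.0229% to 1.09% for the other 5 arrays. Batch removal tied the replicate 1 arrays to the mean of the rest, so their shares (0.114% for control and 0.0229% for BMP-7) are partly set by it. The other batch 2 arrays ran from 0.572% to 1.09%. The ordinary analysis of variance of the study's methods, which borrows no spread across genes, called none after adjustment, with 370 probe sets at an unadjusted p below 0.05. In 9 of the 19 alternatives the fold changes stayed as they were by construction. In the other 10, which change the values, the weights or the arrays compared, all 19 called probe sets kept their direction. This was nearly fixed in advance, since the groups of all 19 did not overlap, and it adds little support.

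**Figure D2:**
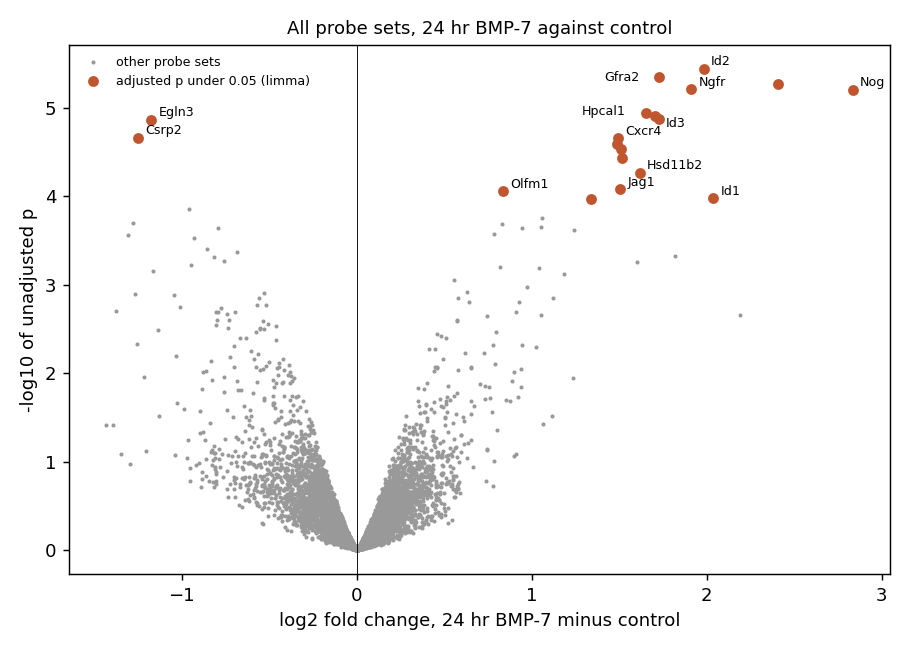
Log2 fold change (horizontal) against -log10 of the unadjusted limma p (vertical) for 8740 probe sets, 24 hr of BMP-7 minus control. The 19 orange points passed the adjusted test, 17 on the right and 2 on the left, and genes are named once.

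The largest rises among named genes were in canonical targets of BMP signaling. Noggin (Nog), a secreted protein that binds BMPs and keeps them from their receptors, read 5.82, 6.30 and 5.23 in the control arrays and 8.62, 8.82 and 8.40 after BMP-7. The change of 2.83 ± 0.26 (log2, SE, adjusted p = 0.0109) was the largest of the named genes called. A dimmer Nog probe set differed by 2.19, with its groups apart, and did not pass (adjusted p = 0.3). The Id genes encode helix-loop-helix proteins without a DNA-binding region, which hold back other transcription factors by pairing with them. Id1 read 7.59, 7.68 and 6.60 in the control arrays and 9.19, 9.34 and 9.45 after BMP-7, a rise of 2.04 ± 0.28 (adjusted p = 0.0491), and the control spread came from the low replicate 3. The second Id1 probe set differed by only 0.18, and it was the brighter of the pair in control arrays (a mean of 7.52 against 7.29). Id2 read 6.99, 7.02 and 6.55 in the control arrays and 8.66, 8.83 and 9.01 after BMP-7 and rose by 1.98 ± 0.17 (adjusted p = 0.0109), a 3.96-fold increase with a tight spread. Id3 read 7.82, 7.77 and 8.33 in the control arrays and 9.84, 9.60 and 9.61 after BMP-7 at its brighter probe set, a rise of 1.71 ± 0.17 (adjusted p = 0.0132), and its other probe set rose by 1.51.

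At 6 hr, which shares the control arrays, Id2 differed from control by 2.43, Id3 by 1.76, Id1 by 1.99 and Nog by 2.10. For Gfra2, Hpcal1 and Hsd11b2 the 6 hr differences were 0.27, 0.45 and 0.31. For Ngfr, Jag1, Cxcr4 and Olfm1 they were 0.73, 0.73, 0.52 and 0.32, and for Egln3 and Csrp2 they were -0.16 and -0.05. The direct test of 24 hr against 6 hr passed for no probe set after adjustment by limma, with 259 at an unadjusted p below 0.05 and a lowest adjusted p of 0.114. The count depended on the fit, with 5 to 7 passing under 3 alternatives and 198 with array weights, and the difference between the times is not established for any single gene here.

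The promoters of Nog and of the 3 Id genes are shown because these genes rose together and are the best-known Smad targets of the list. Each runs from 250 bases before to 50 bases after the start of the gene, 5′ to 3′ on the gene's strand, from RefSeq (GRCr8). Capitals mark GGCGCC, which reads the same on both strands, and GTCT or its complement AGAC, which covers CAGAC. The positions are chr10:74627452-74627751 on the minus strand for Nog, chr3:161671314-161671613 on the plus strand for Id1, chr6:47470946-47471245 on the minus strand for Id2 and chr5:153656041-153656340 on the plus strand for Id3.
Nog: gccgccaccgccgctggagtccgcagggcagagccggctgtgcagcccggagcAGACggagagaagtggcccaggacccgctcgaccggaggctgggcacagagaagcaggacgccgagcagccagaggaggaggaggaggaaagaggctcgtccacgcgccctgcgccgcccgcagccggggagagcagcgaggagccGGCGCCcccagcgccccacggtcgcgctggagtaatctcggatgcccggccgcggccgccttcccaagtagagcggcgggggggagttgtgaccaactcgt
Id1: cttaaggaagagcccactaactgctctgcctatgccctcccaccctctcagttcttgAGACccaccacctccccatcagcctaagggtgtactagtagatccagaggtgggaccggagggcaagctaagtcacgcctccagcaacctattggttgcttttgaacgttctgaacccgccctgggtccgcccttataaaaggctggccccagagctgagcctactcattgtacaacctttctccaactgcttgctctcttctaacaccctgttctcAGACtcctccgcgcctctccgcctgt
Id2: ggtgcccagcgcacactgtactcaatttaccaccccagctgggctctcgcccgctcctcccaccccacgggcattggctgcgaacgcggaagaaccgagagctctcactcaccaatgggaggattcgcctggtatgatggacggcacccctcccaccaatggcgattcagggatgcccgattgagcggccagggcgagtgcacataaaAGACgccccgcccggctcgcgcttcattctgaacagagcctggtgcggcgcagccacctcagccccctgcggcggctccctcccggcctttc
Id3: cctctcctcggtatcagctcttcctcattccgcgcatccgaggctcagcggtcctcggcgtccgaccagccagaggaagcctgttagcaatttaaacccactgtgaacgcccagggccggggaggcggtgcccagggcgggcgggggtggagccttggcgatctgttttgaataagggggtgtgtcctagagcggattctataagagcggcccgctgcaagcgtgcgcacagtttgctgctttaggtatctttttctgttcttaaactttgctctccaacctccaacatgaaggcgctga
Of the 13 genes called, 10 had a promoter in the table. GGCGCC occurred in the Nog promoter alone, starting 51 bases before the start, against 11% of all 33469 promoters. GTCT or AGAC occurred in 9 of 10, against 88.8% of all, and CAGAC or its complement in 5 of 10, against 50.1%. Id3 held neither motif in this window, and Csrp2, which fell, held 8 copies of GTCT or AGAC. These matches describe the letters of the windows only.

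Around these genes the list of known BMP targets and feedback genes held more genes at the thresholds than any other list by share. It is made of genes known to respond to BMPs, and the study named several of them from these same arrays. Its share is therefore partly built in. Of 23 measured, 17 were higher, 9 met the unadjusted thresholds higher (39.1%, against 1.77% of all genes) and 1 lower, and the median change was 0.37, against 0.01 over all genes. With each gene read at the probe set brightest in control arrays alone, a choice added after seeing the data that takes Id1 at its second probe set, 8 met the thresholds higher (34.8%, against 1.71% of all genes) and the median was 0.26. Besides the called genes these were Tmeff1 (a transmembrane BMP and activin antagonist, 0.93), Cxxc5 (0.79), the zinc finger repressor Klf10 (0.74), the sympathetic-lineage factor Hand1 (0.73) and Junb (0.37). Mgp, a matrix protein that binds BMPs and is also among the fibroblast markers, was lower (-0.48). None of the 29 measured BMP, activin and TGF-beta ligands, receptors and Smads met the thresholds, and they ranged from -0.43 to 0.20. For a list of this size that is near the shares over all genes, 1.77% higher and 2.05% lower.

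**Figure D3:**
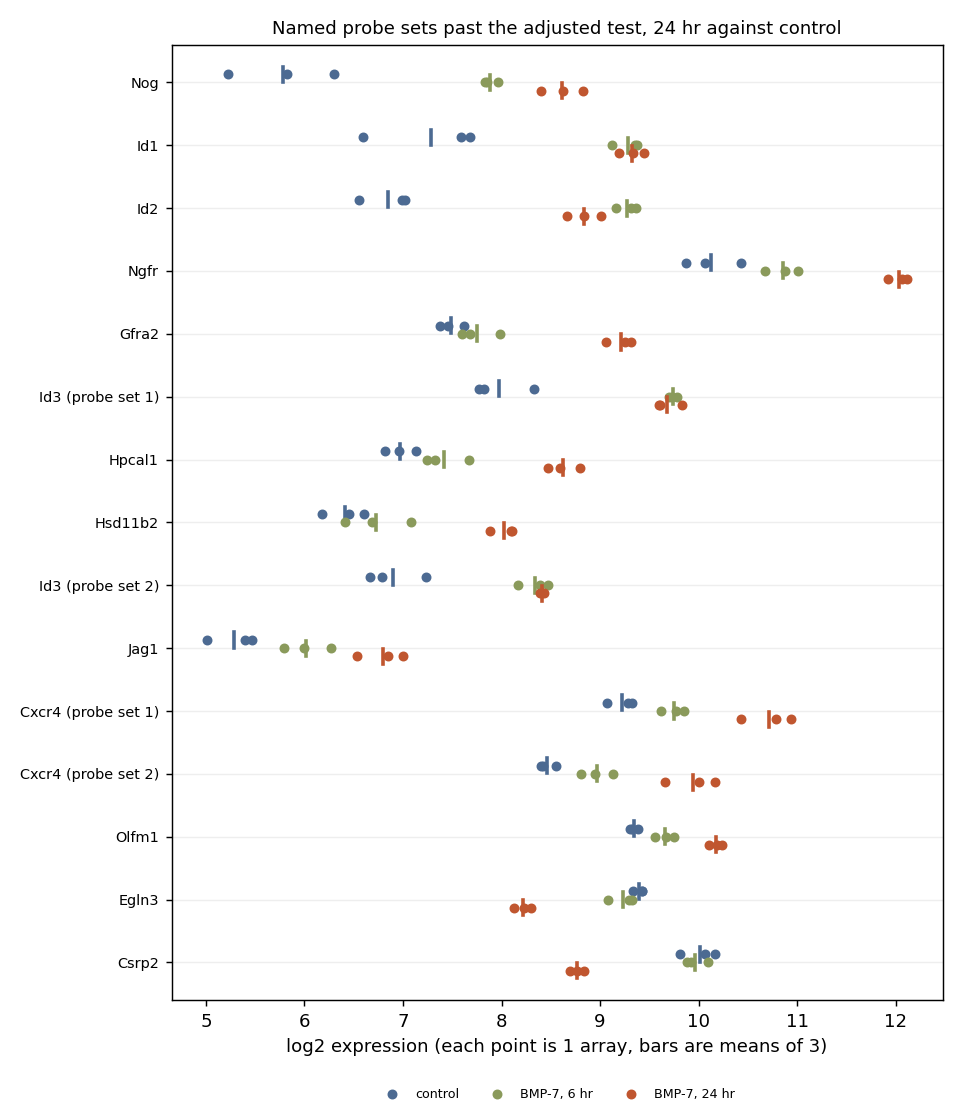
Log2 expression of the 15 named probe sets past the adjusted test in each of the 9 arrays, ordered by fold change. Points are arrays and bars are means of 3. The 24 hr arrays lie to the right of the controls for all but Egln3 and Csrp2, and the 6 hr arrays of the Id genes lie near the 24 hr arrays.

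Cell-surface receptors and ligands for growth factors and contact signals were the second group among the called genes. Ngfr, the p75 neurotrophin receptor, read 10.06, 9.87 and 10.43 in the control arrays and 12.07, 11.92 and 12.12 after BMP-7 at 1 probe set and rose by 1.91 ± 0.18 (adjusted p = 0.0109). Its brighter probe set, of a kind that may also bind related transcripts, differed by only 0.29 and overlapped between groups. Gfra2, the co-receptor for the GDNF-family ligand neurturin, read 7.45, 7.37 and 7.62 in the control arrays and 9.31, 9.06 and 9.25 after BMP-7, a rise of 1.72 ± 0.15 (adjusted p = 0.0109). Its other probe set, slightly brighter in control arrays, was higher by 0.75 ± 0.24 with its groups apart and did not pass (adjusted p = 0.831). Gfra2 was the only 1 of 18 measured neurotrophin, GDNF and cytokine receptors at the thresholds when each gene is read at its brightest probe set, and the list's median was -0.02. Jag1, a transmembrane ligand of Notch receptors, read 5.46, 5.01 and 5.39 in the control arrays and 6.85, 6.54 and 7.00 after BMP-7 and rose by 1.50 ± 0.20 (adjusted p = 0.0454). Of the other 18 Notch pathway genes measured, none met the thresholds, which is near the shares over all genes (1.77% higher and 2.05% lower). Dll1, another Notch ligand, overlapped between groups and differed by -0.17 ± 0.22.

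Cxcr4, the receptor for the chemokine Cxcl12, read 9.28, 9.32 and 9.07 in the control arrays and 10.79, 10.43 and 10.94 after BMP-7 at its brightest probe set. It rose by 1.49 ± 0.16 there (adjusted p = 0.0177) and by 1.49 at a second, and the third differed by 1.82 without passing. Among the other 30 chemokine and inflammation genes, Ccl2 (-0.41) and Ifitm3 (-0.59) met the unadjusted thresholds, both lower. They made up 6.45% of the whole list, against 2.05% of all genes. Hpcal1, a neuronal calcium sensor of the visinin-like family, read 6.96, 7.13 and 6.81 in the control arrays and 8.80, 8.60 and 8.47 after BMP-7 and rose by 1.66 ± 0.17 (adjusted p = 0.0132). Hsd11b2, the enzyme that inactivates glucocorticoids, read 6.61, 6.45 and 6.18 in the control arrays and 7.88, 8.10 and 8.11 after BMP-7, a rise of 1.62 ± 0.20 (adjusted p = 0.0319). Olfm1, a secreted olfactomedin-domain protein of neurons, rose by 0.84 ± 0.11 (adjusted p = 0.0454) at 1 probe set. At its brighter probe set the difference was 0.62 and did not pass (adjusted p = 0.543).

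Both called decreases lay outside the BMP target list. Egln3, a prolyl hydroxylase that marks hypoxia-inducible factors for breakdown, read 9.42, 9.34 and 9.42 in the control arrays and 8.13, 8.30 and 8.22 after BMP-7 and fell by 1.17 ± 0.12 on the log2 scale (adjusted p = 0.0132). Its brighter probe set was also lower (-0.80) without passing, and none of the other 24 oxygen sensing and hypoxia genes met the thresholds. Over all genes 1.77% were higher and 2.05% lower at the unadjusted thresholds, so none in a list of this size is near the base. Csrp2, a LIM-domain protein that binds the actin cytoskeleton, read 10.07, 9.81 and 10.17 in the control arrays and 8.76, 8.70 and 8.84 after BMP-7 and fell by 1.25 ± 0.14 (adjusted p = 0.0177). The other 43 actin regulators and LIM proteins were little different as a list, with a median of 0.01 over all 44, and Pdlim1 (-0.55) was lower and Arhgap28 (0.78) and Twf1 (0.33) higher at the unadjusted thresholds. Of the 4 called probe sets with no gene name here, rc_AA900503_at rose by 2.41 and rc_AA874889_g_at by 1.73.

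Beyond the adjusted calls, transmitter receptors and their second messengers differed in both directions, and the genes given from here on are at unadjusted thresholds only. Of 120 list genes at these thresholds, 63 had more than 1 probe set. In 52 of the 63 all probe sets differed in 1 direction, and in 22 all met the thresholds. In the other 11 (Acsl1, Alcam, Camk2d, Cask, Fgfr1, Gabbr2, Igf1r, Junb, Map1a, Nqo1 and Tyro3) at least 1 dimmer probe set lay on the other side of 0, and their differences are uncertain. Of 92 G protein-coupled receptors, 6 were higher and 5 lower (6.52% and 5.43%, against 1.77% and 2.05% of all genes). Mc4r, a melanocortin receptor that raises cAMP, read 8.42, 8.61 and 7.96 in the control arrays and 6.92, 7.01 and 7.21 after BMP-7 and was lower by 1.28 ± 0.19 (adjusted p = 0.0775). The metabotropic glutamate receptor Grm7 (-0.93), the serotonin receptor Htr2b (-1.14) and the neuropeptide Y receptor Npy1r (-0.99) were also lower, and the secretin receptor Sctr (0.63), the somatostatin receptor Sstr2 (0.64) and the glucagon receptor Gcgr (0.92) higher. Of 58 G protein, cAMP and phospholipase genes, 2 were higher and 6 lower (3.45% and 10.3%). Plcb1 and Plcb3, phospholipases C that act after Gq-coupled receptors, differed in opposite directions. Plcb1 read 8.73, 8.70 and 8.70 in the control arrays and 7.75, 7.53 and 7.98 after BMP-7 (change -0.96 ± 0.14, adjusted p = 0.0604), and its 3 probe sets were all lower. Plcb3 read 7.31, 7.48 and 7.65 in the control arrays and 8.57, 8.70 and 8.08 after BMP-7 (change 0.97 ± 0.19, adjusted p = 0.215), and both its probe sets were higher. Rgs4, which shortens G protein signals, was lower by 1.38 ± 0.30, and the cAMP phosphodiesterase Pde4b by 0.70 ± 0.18.

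Among genes of peptide and amine transmitters more were lower than higher. Of 38 neuropeptides, granins and processing enzymes, 7 were lower (18.4%, against 2.05% of all genes), with a median change of -0.06. The 1 higher (2.63%) is near the 1.77% of all genes. The glycoprotein hormone alpha subunit Cga read 11.40, 11.37 and 11.28 in the control arrays and 10.52, 10.72 and 10.42 after BMP-7 and differed by -0.79 ± 0.12 (adjusted p = 0.0775). Adcyap1, which encodes the peptide PACAP, was lower at all 3 of its probe sets (-0.95 at the brightest, adjusted p = 0.141). Cartpt (-0.74), Vgf (-0.42), the granin Scg3 (-0.37), the prohormone convertase Pcsk2 (-0.42) and Ecel1 (-0.32) were the other lower members, and Pnoc (0.40) the higher one. In the catecholamine pathway, Gch1, which makes the tetrahydrobiopterin cofactor of tyrosine hydroxylase, read 9.59, 9.56 and 9.80 in the control arrays and 10.62, 10.37 and 10.80 after BMP-7 and was higher by 0.95 ± 0.15 (adjusted p = 0.0775), with all 4 of its probe sets higher. The monoamine oxidases Maoa (-0.70) and Maob (-0.80), which break amines down, and Ddc (-0.45), which makes dopamine from DOPA, were lower. Of 14 catecholamine genes measured, 1 was thus higher (7.14%) and 3 lower (21.4%). Dbh, which makes noradrenaline, was apart by 0.24 ± 0.10, under the fold threshold.

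**Figure D4:**
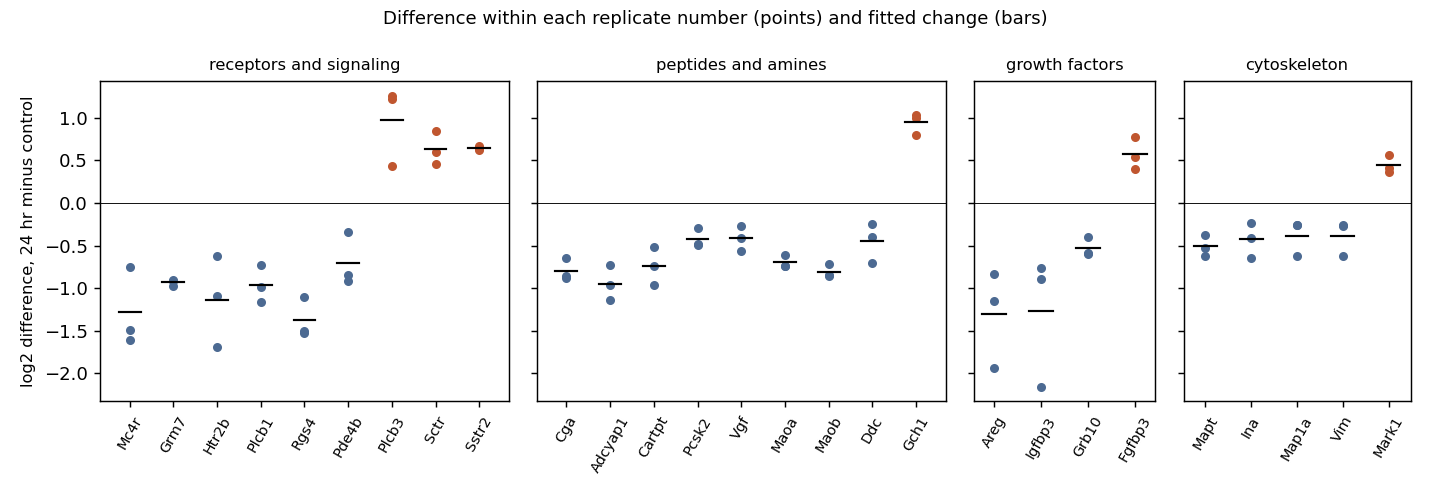
Log2 difference between the 24 hr and control arrays that share a replicate number (points) and the fitted change (bars) for genes of 4 functional groups that met the unadjusted thresholds. All 3 points of every gene lie on 1 side of 0, and Igfbp3, Areg and Htr2b spread the most.

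The lists of microtubule, filament and motor proteins held more genes lower than higher at 24 hr, while Map2, Nefl and Gap43 did not meet the thresholds. Map2, the microtubule-associated protein that marks dendrites, read 9.73, 9.77 and 9.65 in the control arrays and 9.61, 9.40 and 9.63 after BMP-7. At this brightest probe set the Map2 groups were apart, with a difference of -0.17 ± 0.14, under the thresholds. The 5 Map2 probe sets ran from -0.27 to 0.27. Nefl and Gap43, a neurofilament and a growth-cone protein of axons, differed by -0.05 ± 0.12 and -0.06 ± 0.12. Of 24 microtubule-associated proteins and intermediate filaments, 4 were lower (16.7%, against 2.05% of all genes) and 1 higher (4.17%). Tau (Mapt), the axonal counterpart of Map2, read 12.38, 12.25 and 12.34 in the control arrays and 11.76, 11.73 and 11.97 after BMP-7 and was lower by 0.51 ± 0.12 (adjusted p = 0.339), with all 3 probe sets lower. Ina (-0.43), Map1a (-0.38) and Vim (-0.38), a fibroblast marker as well, were also lower, and the microtubule affinity kinase Mark1 (0.44) higher. Of 16 tubulins and motor proteins, the dynein heavy chain Dync1h1 (-0.26) and the dynactin subunit Dctn1 (-0.34) were lower (12.5%) and none higher. In each of these lists 25% of the genes lay entirely below control, against 7.69% of all genes. Of 37 dendrite and postsynaptic proteins, Hpcal1 was the 1 higher (2.7%, near the 1.77% of all genes). Camk2g (-0.74), Cask (-0.58) and Camk2d (-0.36) were lower (8.11%, against 2.05%). The second Cask probe set differed by 0.02, and of 6 Camk2d probe sets 3 were lower and 3 higher, from -0.60 to 0.16.

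The growth factor list held more genes lower than higher, and the adhesion list differed in both directions. Of 46 genes of the EGF, insulin-like and other growth factor families, 7 were lower (15.2%) and 2 higher (4.35%), with a median of -0.11. Areg, an EGF receptor ligand, read 6.46, 5.93 and 5.79 in the control arrays and 4.52, 4.79 and 4.96 after BMP-7 (change -1.30 ± 0.21, adjusted p = 0.0833). Hbegf, another such ligand, was higher (0.73). Its second probe set, brighter in control arrays, overlapped between groups and differed by 0.01. With each gene read at the probe set brightest in control arrays, 1 gene of the list was higher. Igfbp3, which binds insulin-like growth factors and is a fibroblast marker, read 8.47, 8.35 and 9.06 in the control arrays and 7.58, 7.59 and 6.90 after BMP-7 and was lower by 1.27 ± 0.26. Grb10, an adaptor at insulin-family receptors, was lower by 0.53 ± 0.11, and Igf1r (-0.74), Fgfr1 (-0.53) and Tyro3 (-0.88) were lower too, as was Kdr (-1.39), an endothelial marker. The second Tyro3 probe set overlapped between groups and differed by 0.04, and that of Igf1r by 0.11. Of 48 adhesion molecules, 6 were lower (12.5%, against 2.05% of all genes) and 4 higher (8.33%, against 1.77%). The lower ones included Alcam (-0.83), Cd47 (-0.58), N-cadherin (Cdh2, -0.48) and the receptor phosphatase Ptprr (-0.85). The other Alcam probe sets overlapped between groups, at 0.07 and -0.16. Of 54 synaptic vesicle and release proteins, 3 were higher and 3 lower (5.56% each way). Among them were Syn2 (0.57), which tethers vesicles, and Hip1 (0.89) on 1 side and Sv2b (-1.03) and Syt4 (-0.68) on the other.

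Immediate early and stress genes were mixed, with 4 higher and 5 lower of 38 (10.5% and 13.2%, against 1.77% and 2.05% of all genes). Egr1, a zinc finger factor induced by activity and growth factors, read 9.33, 9.09 and 9.64 in the control arrays and 10.67, 9.95 and 11.14 after BMP-7 and differed by 1.24 ± 0.37 at 24 hr (adjusted p = 0.734) and by -0.63 at 6 hr. All 4 Egr1 probe sets were higher at 24 hr, from 0.06 to 1.24. Klf10, Junb and the phosphatase Dusp1 were the other higher members. Dusp1 was higher with its groups apart at all 3 of its probe sets (0.39, 0.79 and 0.83). The paper lists the probe set at 0.83 among genes lowered by BMP-7, opposite to the direction in these values. Atf3, a stress-induced repressor, read 8.86, 8.68 and 8.84 in the control arrays and 7.92, 7.94 and 7.48 after BMP-7 and was lower by 1.01 ± 0.22. Cited2 (-0.77), Bhlhe41 (-0.70), Gadd45a (-0.47) and Jund (-0.45) were lower as well. Of 18 Bcl2-family and caspase genes, Hrk (-0.47) and Diablo (-0.42), both of which promote cell death, were lower (11.1%) and none higher.

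The housekeeping machinery showed no member at the unadjusted thresholds with each gene read at its brightest probe set. This held for 42 genes of glycolysis, the citrate cycle and the respiratory chain, 29 chaperones, 41 ribosomal proteins and translation factors and 28 proteasome and ubiquitin genes, whose medians ran from -0.06 to 0.03. Among the chaperones, Hspb1 met those thresholds, lower, at the probe set brightest in control arrays alone (-0.39). Metabolic exceptions were single genes of other lists. Cdo1, which oxidises cysteine, was lower by 1.17 ± 0.21, with both its probe sets lower, and Ppat, the first committed enzyme of purine synthesis, was higher by 1.12 ± 0.23. The antioxidant enzymes Sod2 (-0.45), Nqo1 (-0.38) and Gsr (-0.34) were lower, with none of the 33 measured in their list higher. Of 45 potassium channels, Kcnh1 (0.65) and Kcnc1 (0.32) were higher (4.44%). Of 39 other cation, chloride and proton channels, Scn7a (0.94) was higher and Asic2 (-0.45) lower (2.56% each way). Of 54 ligand-gated receptors, Htr3a (0.33) was higher (1.85%) and Gria2 (-0.36) and Chrna9 (-0.29) lower (3.7%). Over all genes the shares were 1.77% higher and 2.05% lower, so several of these counts are near the base.

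**Figure D5:**
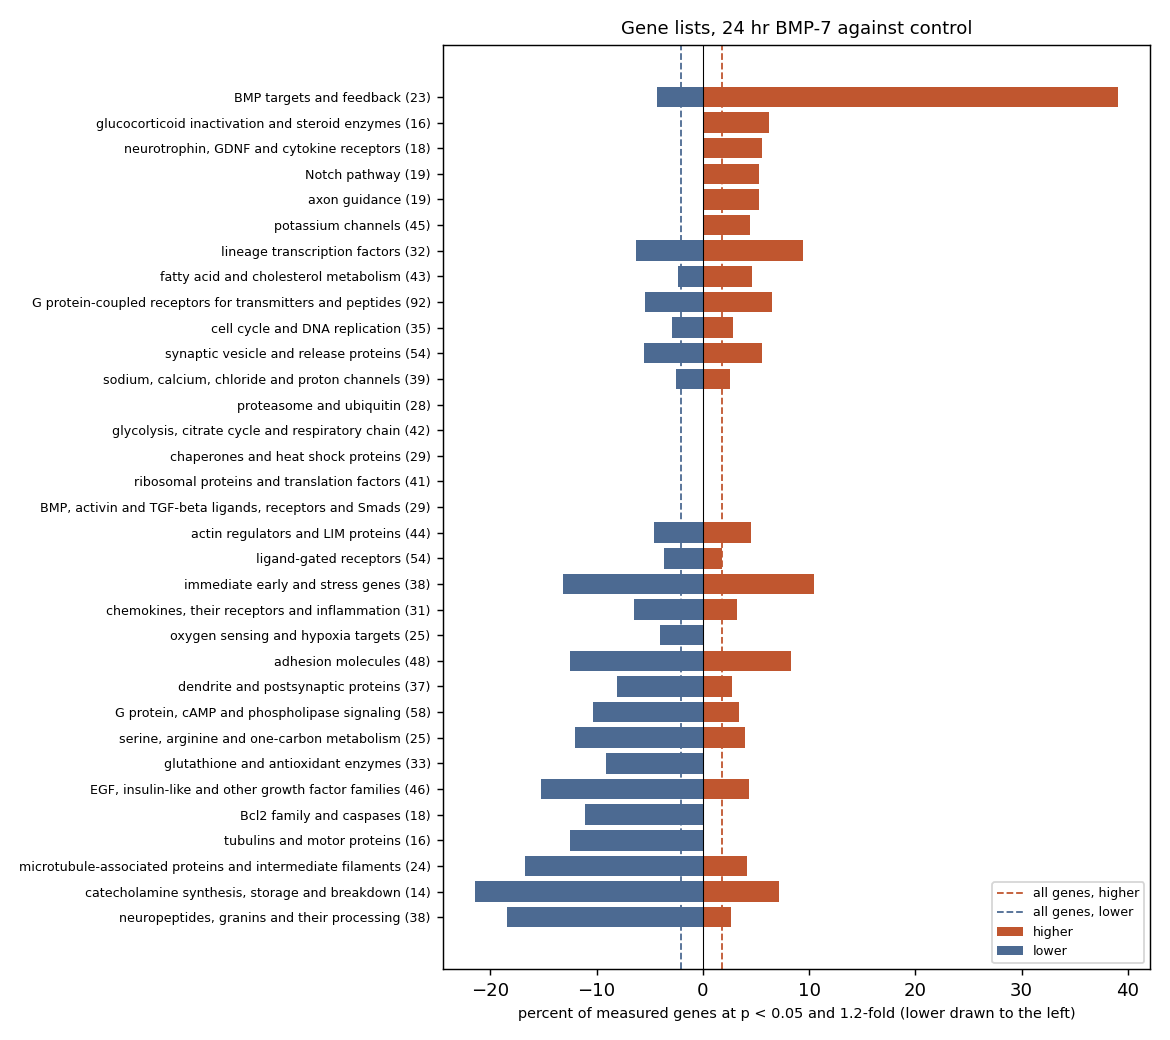
Percent of measured genes in each of 33 lists at an unadjusted p below 0.05 and a change of at least 1.2-fold, higher to the right and lower to the left, with the number measured in brackets. Dashed lines mark all 4736 genes (1.77% higher and 2.05% lower), and the BMP target list reaches 39.1% higher.

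The remaining lists held few genes at the thresholds, where 1.77% of all genes were higher and 2.05% lower. Of 32 lineage transcription factors, Hand1, Zfp148 (0.90) and Myt1l (0.31) were higher (9.38%) and Rarb (-0.46) and Thra (-0.29) lower (6.25%). Of 19 axon guidance genes the netrin receptor Unc5b (0.46) was higher (5.26%) and none lower. Of 43 genes of fatty acid and cholesterol metabolism, Hacl1 (0.52) and Fntb (0.36) were higher (4.65%) and Acsl1 (-0.54) lower (2.33%). The second Fntb probe set, brighter in control arrays, overlapped between groups and differed by 0.06. With each gene read at the probe set brightest in control arrays, 1 gene of this list was higher. Of 35 cell cycle and replication genes, Slbp (0.36) was higher and Nap1l1 (-0.32) lower (2.86% each way). Among the large changes outside the lists, Tmem64, a membrane protein, was higher by 1.60 and the matrix metalloproteinase Mmp3 lower by 1.03, neither past the adjusted test. Trdmt1, an RNA methyltransferase, was lower by 1.13, with control arrays spread from 6.37 to 7.81. The calcium buffer Calb1 differed by -0.80 with its groups apart. The small heat shock protein Hspb1, of the chaperone list, was lower at all 4 of its probe sets with the groups apart. They ran from -0.53 to -0.16, and those at -0.53 and -0.39 met the unadjusted thresholds. The angiogenic factor Vegfa differed by -0.03 at its brightest probe set, with overlap, and by 0.30 to 0.35 at the other 3, of which the one at 0.30 had its groups apart and met the unadjusted thresholds. The doublecortin-like kinase Dclk1 (0.08) overlapped between groups.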

How the data were processed

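Total RNA was hybridised to Affymetrix Rat Genome U34A arrays, which read 1 colour. The deposited values are log2 expression levels, which the authors made from the scanner files with robust multichip average (RMA) normalization in Partek, followed by removal of the processing batch as a factor. Per probe set, the means of the 2 batches differed by at most 6.67e-05, so batch offsets had been removed before deposit. Of 8799 probe sets, 59 control probe sets were left out. A platform annotation table gave 1 gene for 7006, several for 308 and none for 1426, naming 4736 genes. No 2 arrays were identical. The number of arrays limits the precision.

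Limma 3.58.1 (R 4.3.3, Python 3.11.15 for tables) was fitted to the log2 values of 9 arrays with treatment and batch, with 5 residual degrees of freedom, and p-values were Benjamini-Hochberg adjusted over 8740 probe sets. The fit was tested on simulated data. The second threshold was an unadjusted p below 0.05 with a change of at least 1.2-fold. Replicates are separate dissections.

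The members and gene lists were chosen with earlier results of these data known. Genes named were those past the adjusted test, the 15 largest differences each way at the unadjusted thresholds without overlap, up to 5 per list by p, 37 named in the running text of the paper (picked there on these arrays, so not independent) and neuron genes. Other members of a list are named where its count is small, which was decided after their values were seen. Alternatives changed the test, the batch term, the normalization, the filter on dim probe sets, the weights and the arrays included. Promoters came from RefSeq (GRCr8).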

Additional observations from a re-analysis of the deposited data

How the results depend on the processing

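Counts of adjusted calls depended on the fit. Against 17 higher and 2 lower, the counts were 0 and 0 with the study's ordinary two-way analysis of variance (370 probe sets at an unadjusted p below 0.05) and with batch 2 alone (160), 26 and 12 with no batch term, 9 and 1 with the control and 24 hr arrays alone, 28 and 14 where the spread followed intensity, and 153 and 127 with array weights. With dim probe sets removed, 6 were lower. Leaving out 1 array at a time gave 0 to 22 higher and 0 to 4 lower. With the replicate block the counts were 13 and 5. The numbers are not stated to mark a dissection, and within batch 2 the differences between replicates 2 and 3 correlated across probe sets at 0.02 between control and 24 hr, 0.05 between control and 6 hr and 0.40 between 6 hr and 24 hr, so the numbers were not treated as pairs. At the unadjusted thresholds, 140 higher and 152 lower became 256 lower with the replicate block, 68 and 92 with batch 2 alone, 408 and 344 with array weights, and 69 and 67 with a change of at least 1.5-fold. Leaving out 1 array gave 90 to 227 higher and 98 to 256 lower. The 24 hr against 6 hr test passed for 6 probe sets with no batch term, 5 with the replicate block, 7 with the intensity trend and 198 under array weights, against 0. The cause of these shifts was not tested.

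Of 123 probe sets named, 3 changed sign in any alternative, all with differences near 0. Gap43 was 0.022 with array weights and from -0.134 to 0.0060 leaving out 1 array at a time, Nefl was 0.062 with array weights, and Vegfa ran from -0.128 to 0.060 leaving out 1 array. Of 38 list medians, 4 changed sign when all probe sets of a gene were averaged. Quantile normalization and median centring kept 17 and 19 of the 19 called probe sets past the adjusted test. Reading each gene at the probe set brightest in control arrays alone, chosen after seeing the data, gave 81 genes higher and 99 lower at the unadjusted thresholds, against 84 and 97.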
